A study of Mus musculus with 6 samples.

Results

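The interleukin-1 family and the Nlrp3 inflammasome were followed in bone marrow-derived macrophages (BMMs) through 10 genes: the ligands Il1a, Il1b and Il18, the antagonists Il1rn and Il18bp, the receptor subunit Il1rap, and the inflammasome genes Nlrp3, Pycard, Casp1 and Casp4. These genes were chosen by name, with earlier results of these data known. All 10 were found among the 24394 gene symbols of the series. All were also among the 10393 genes that passed the filter on low values, Il1a only through its stimulated libraries. BMMs are macrophages grown from marrow, here from C57BL/6 mice at postnatal day 28, with M-CSF at 50 ng/ml for 7 days. RNA was sequenced from 3 control libraries and from 3 libraries of BMMs that had received cartilage fragments, 5 to each macrophage, for 24 h (stimulated macrophages). No label says whether the 3 libraries of a group came from separate mice or cultures, so p-values measure only the spread between these libraries, which may be technical. The deposited values are FPKM, the number of sequenced cDNA fragments of a transcript scaled to its length and to the depth of the library. They rest on an estimated 743000 to 776000 sequenced fragments in a control library and 699000 to 754000 in a stimulated one. This estimate was made from the coverage, since no counts were used here, and it is far below the number of mapped reads per sample that the study's methods give. The reason for that gap was not tested, and every fragment number and counting interval given here depends on the estimate.

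IL-1β and IL-18 are made as precursors without signal peptides. In macrophages, transcription of Il1b and Nlrp3 is known to be raised through NF-κB by a priming signal, and a second signal assembles NLRP3 with the adaptor ASC, the product of Pycard, and caspase-1, which cuts the precursors and opens the way to their release. RNA levels bear on the priming step alone, and neither cutting nor release of a cytokine was measured here.

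The sequences just upstream of Il1b, Il1rn and Casp4 are shown, 3 genes with higher values in every stimulated library than in every control library. That of Casp1, a neighbour of Casp4 with overlapping groups, is set beside them to let the letters of these windows be compared. Of these 4 genes only Il1b passed the test over all genes described below. Each line gives the 250 bases before a RefSeq transcript start (build GRCm38.p6, 5′ to 3′ on the strand of the gene), and capitals mark every match, on either strand, to GGGNNNNNCC (NF-κB), TTNNGNAA (C/EBP) or TATAAA (a core promoter motif).
Il1b, chr2:129371140-129371389, minus strand: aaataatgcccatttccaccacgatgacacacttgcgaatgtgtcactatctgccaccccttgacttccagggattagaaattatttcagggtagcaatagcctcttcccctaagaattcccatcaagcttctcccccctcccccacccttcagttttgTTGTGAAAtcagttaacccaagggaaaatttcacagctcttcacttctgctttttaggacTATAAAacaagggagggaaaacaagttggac
Il1rn, chr2:24345041-24345290, plus strand: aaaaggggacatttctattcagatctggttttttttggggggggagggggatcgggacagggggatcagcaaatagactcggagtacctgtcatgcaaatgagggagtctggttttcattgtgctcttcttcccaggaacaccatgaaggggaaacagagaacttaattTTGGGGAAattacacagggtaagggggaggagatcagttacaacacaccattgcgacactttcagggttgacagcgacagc
Casp4, chr9:5308599-5308848, plus strand: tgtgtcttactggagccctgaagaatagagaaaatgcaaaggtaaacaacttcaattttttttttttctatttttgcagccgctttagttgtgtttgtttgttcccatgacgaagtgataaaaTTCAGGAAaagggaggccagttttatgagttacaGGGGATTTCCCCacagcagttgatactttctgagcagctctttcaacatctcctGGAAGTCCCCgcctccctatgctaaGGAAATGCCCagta
Casp1, chr9:5298267-5298516, plus strand: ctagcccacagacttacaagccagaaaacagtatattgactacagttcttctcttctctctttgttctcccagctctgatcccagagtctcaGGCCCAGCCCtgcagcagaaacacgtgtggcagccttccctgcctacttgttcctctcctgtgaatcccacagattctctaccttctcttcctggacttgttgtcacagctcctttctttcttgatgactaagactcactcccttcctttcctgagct
The Il1b window held the core promoter motif, starting 31 bases before the transcript start, a C/EBP match that begins 91 bases before it, and no match to the NF-κB letters. That motif was present in 12.4% of the 32851 windows of the same length in the RefSeq table, and the C/EBP letters in 36.8%. The Il1rn window, which lies upstream of both transcript starts to which Cufflinks gave fragments, held a single C/EBP match. The window directly before the second of these starts (chr2:24345121-24345370) overlaps the first transcript and is not shown, and it held an NF-κB match that begins 51 bases before that start (GGGTTTTTCC) and 2 separate stretches with C/EBP matches. The window before the third Il1rn start, to which Cufflinks gave no fragments, held 1 NF-κB and 1 AP-1 match. Which starts the cells used was not tested. The Casp4 window held 3 separate stretches with NF-κB matches, some of them overlapping matches on both strands, and a C/EBP match, while Casp1 held a single NF-κB match. An AP-1 motif (TGANTCA, in 6.75% of all windows) had no match in these 4 windows. The same was true of a PU.1 motif, GAGGAAGT, which 2.44% of all windows hold. Windows of Il1a and Nlrp3, also higher in every stimulated library, are not shown and differ from this. The Il1a window held an AP-1 match that begins 12 bases before the start (TGACTCA), the core promoter motif and a C/EBP match. Nlrp3 had a window with 1 C/EBP and 0 NF-κB matches (chr11:59542436-59542685). Another, chr11:59541319-59541568, held 1 NF-κB and 2 C/EBP matches. Il1rap, with overlapping groups, had NF-κB matches in 4 separate stretches, more than Casp4. The windows of Il18, Il18bp and Pycard, also with overlapping groups, held 0 NF-κB matches. The NF-κB letters were found in 45.8% of all windows, and a match is a description of letters and not a binding site. In the deposited files Il1b starts slightly downstream of the RefSeq start used for this window.

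In stimulated macrophages the RNA of Il1b rose 6.08-fold, and it was the only one of the 10 genes to pass the test over all genes in FPKM. Il1a, Il1rn, Nlrp3 and Casp4 also had higher values in every stimulated library than in every control library without passing it, whereas Pycard, Il18, Il18bp, Il1rap and Casp1 had overlapping groups. The test was limma on log2(FPKM + 0.1), with Benjamini-Hochberg adjustment across all 10393 tested genes, and 0.308% of those passed an adjusted p of 0.05 upward and 0.366% in either direction. Groups separated upward in 5 of the 10 genes and in 9.04% of all tested genes. The log2 fold change was above 0 in 9 of the 10 genes and in 50.5% of all tested genes, and its median was 0.66 against 0.00. Il1a was tested only through its stimulated libraries, and without it 4 of 9 genes were separated upward, 8 of 9 were above 0 and the median was 0.59. At an unadjusted p under 0.05 there were 5 of the 10 genes, and 955 of all tested genes. The 10 genes were chosen with earlier results of these data known, so these shares are a description only. Since these are bulk libraries, more RNA per cell and more cells of a type cannot be told apart.

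**Figure D1:**
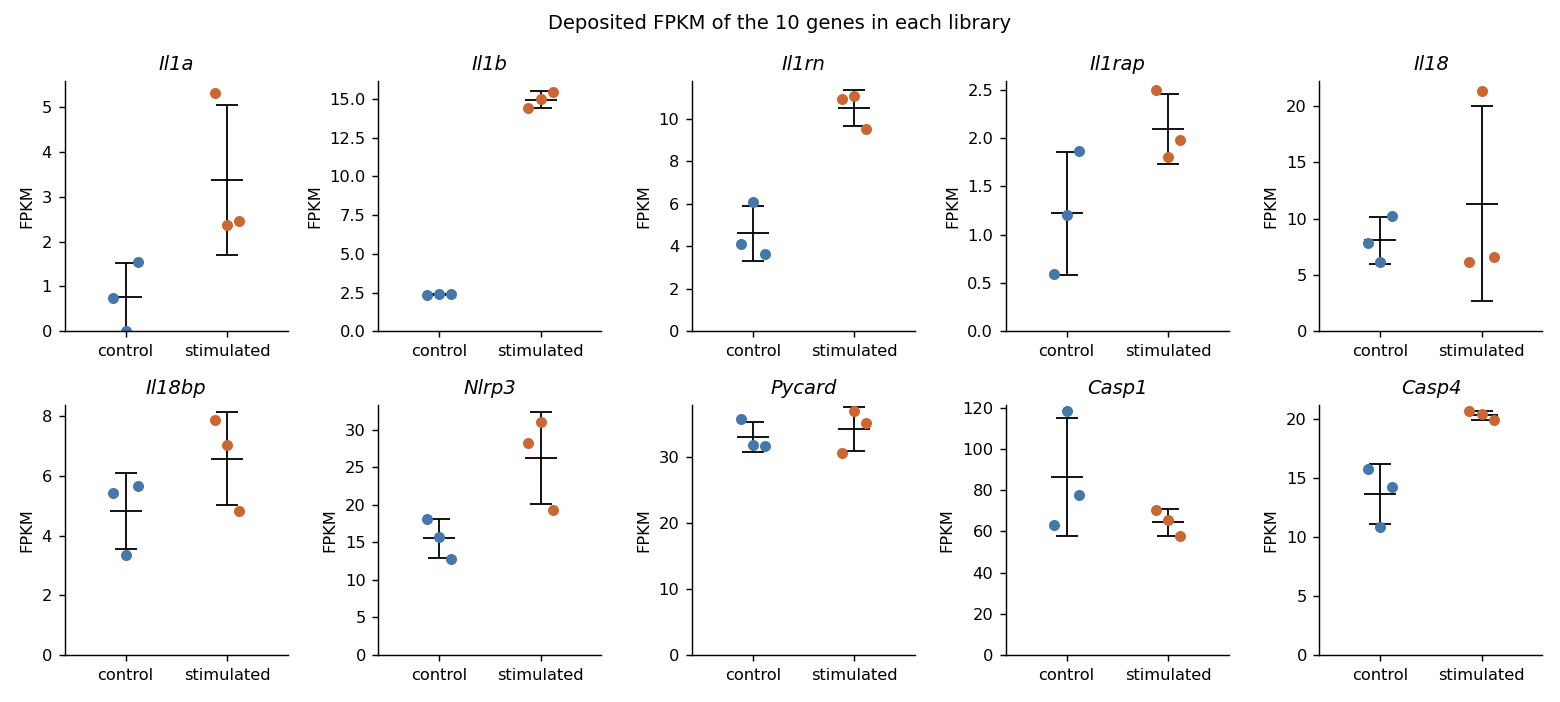
FPKM of each of the 10 genes (vertical axes, each from 0, with scales that differ between panels) in 3 control libraries (blue) and 3 stimulated libraries (orange). Points are libraries and black bars are the mean ± SD. Il1a, Il1b, Il1rn, Nlrp3 and Casp4 show no overlap between the groups, and the 3 Il1b values of a group lie almost on top of each other.

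Markers of other cells were summed in each library. Macrophage markers (7 genes, among them Adgre1, Csf1r and Lyz2) came to 29402 to 39129 FPKM in the controls and 29935 to 40198 FPKM in the stimulated libraries. Nearly all of this was Lyz2 (means 32511 and 32334 FPKM). In FPKM 1 of the 7, Adgre1, passed upward (limma adjusted p = 0.00965, at most 0.0827 with stimulated replicate 1 or 2 left out). In sequenced fragments scaled to the depth of the library (scaled fragments), Adgre1 passed upward (limma adjusted p = 1.11e-08) and so did Itgam (limma adjusted p = 0.000366). Csf1r, Cd68, Fcgr1, Mertk and Lyz2 passed in neither unit. Neutrophil markers, 5 of 7 tested and 0 passing, came to 808 to 948 and 755 to 1098 FPKM, and these sums overlapped. They were led by S100a8 (means 317.9 and 377.5 FPKM) and S100a9 (442.9 and 391.1 FPKM). Ngp (62.8 and 62.4 FPKM), Ltf (30.4 and 25.1 FPKM) and Camp (13.7 and 22.8 FPKM) were lower. Mpo (0.756 and 0.191 FPKM) and Elane (0.627 and 0 FPKM) were near 0. Neutrophils also express Il1b, and whether any were present was not tested. Of 11 chondrocyte markers 6 were at 0, and their sum was 1.54 to 4.22 and 1.18 to 2.82 FPKM. All 4 lymphocyte markers were at 0, and the 3 dendritic cell markers summed to at most 2.36 FPKM, with Flt3 at 0. Fibroblast markers (4 genes, 3 tested, 0 passing in FPKM) came to 78.6 to 94.8 FPKM in the controls and 47.1 to 57.1 FPKM in the stimulated libraries without overlap, nearly all of it Col1a1 (79.0 ± 7.28 and 47.8 ± 3.77 FPKM, SD, n = 3). Col3a1 had a lower mean in the stimulated libraries (3.14 and 1.73 FPKM). Dcn (2.79 and 3.52 FPKM) and Pdgfra (0.281 and 0.365 FPKM) had higher ones, and the groups of Col3a1, Dcn and Pdgfra overlapped. In scaled fragments Col1a1 passed downward (log2 fold change -0.72, limma adjusted p = 1.38e-05). Their part in the results on the 10 genes was not tested.

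Il1b (NM_008361, chromosome 2, 129364580 to 129371120, minus strand) encodes IL-1β. It had 2.32, 2.39 and 2.42 FPKM in the control libraries and 14.4, 15.0 and 15.5 FPKM in the stimulated libraries. The highest control value was thus far below the lowest stimulated value. The means were 2.38 ± 0.0534 and 15.0 ± 0.544 FPKM (SD, n = 3; log2 fold change 2.60, standard error or SE 0.218, 95% interval 2.10 to 3.11, limma adjusted p = 0.00283). By adjusted p it ranked 8 among all tested genes. These values rest on few sequenced fragments: 6 over the 3 control libraries and 36 over the 3 stimulated libraries. The ratio of these fragments per depth was 6.28 (exact 95% interval 2.62 to 18.2), where the interval covers counting error only. Each control library held about 2 fragments of Il1b and each stimulated library about 12. The SD between libraries was 0.0091 fragments in control and 0.016 in stimulated libraries, where counting alone would give 1.42 and 3.47, so the replicate spread of Il1b was smaller than its counting error. In scaled fragments the SE of the log2 fold change was larger, 0.516, around a value of 2.59 (limma adjusted p = 0.00348). The rise passed the threshold in 15 of 15 alternative settings, among them the 6 that left out 1 library each, with limma adjusted p between 0.00229 and 0.0407. Since the libraries of a group were nearly equal, leaving out 1 could move the log2 fold change little (2.58 to 2.63). These cases say little about counting error, and the p-values in FPKM rest on a spread below it.

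Il1a (NM_010554, chromosome 2, 129299610 to 129309972, minus strand) encodes IL-1α, a ligand of the same receptor that is active without cutting. It lies next to Il1b, with 54607 bases between them. Its values were 0.735, 0 and 1.54 FPKM in the controls and 5.32, 2.38 and 2.45 FPKM in the stimulated libraries. The groups did not overlap, but the log2 fold change of 2.66 had a wide interval, 0.10 to 5.21 (limma adjusted p = 0.526). That value was 1.47 without control replicate 2, the library at 0, and 3.49 without control replicate 3, and it was 1.36 with a pseudocount of 1 and 3.80 with one of 0.01. Only 3 fragments were counted in controls and 13 in stimulated libraries, a ratio per depth of 4.53 (exact 95% interval 1.25 to 24.8). In stimulated replicate 1 the overlapping gene Gm14023 was listed at 0.853 FPKM, and how fragments were shared between them was not tested.

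Il1rn (chromosome 2, 24336860 to 24351491, plus strand) encodes the interleukin-1 receptor antagonist, which occupies the receptor without signalling. It had 4.13, 6.07 and 3.64 FPKM in the controls and 11.0, 11.1 and 9.53 FPKM in the stimulated libraries. Every stimulated value exceeded the highest control value. The means were 4.61 ± 1.28 and 10.5 ± 0.861 FPKM (SD, n = 3; log2 fold change 1.20, SE 0.260, 95% interval 0.60 to 1.80, limma adjusted p = 0.133). Fragments numbered 23 in controls and 51 in stimulated libraries, a ratio per depth of 2.32 (exact 95% interval 1.39 to 3.98). In scaled fragments its adjusted p was 0.0556 from limma. The files list 3 reference transcripts of Il1rn, which differ in their starts and encode secreted and intracellular forms. NM_031167, with the start farthest upstream (24336860), was at 0 in all 6 libraries. NM_001159562 (start 24345291) carried all FPKM in control replicates 1 and 2 and stimulated replicate 1, 52.4% in control replicate 3 and none in stimulated replicates 2 and 3. NM_001039701 (start 24345371) carried the rest. Its mean share was 15.9% in controls and 66.7% in stimulated macrophages, a difference of 50.8 percentage points (exact two-sided permutation test, p = 0.4, where 0.1 is the smallest possible). These 2 starts lie close together, and Cufflinks gave all Il1rn fragments to a single transcript in every library but control replicate 3.

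The balance of antagonist and cytokine was compared within libraries, which FPKM allow since they are per length. The ratio of Il1rn to Il1b FPKM was 1.78, 2.54 and 1.50 in control and 0.762, 0.738 and 0.616 in stimulated libraries. Il1rn was thus listed above Il1b in all 3 controls and below it in all 3 stimulated libraries. Each control ratio rests on about 2 fragments of Il1b and 6.03 to 10.1 of Il1rn. Each stimulated ratio rests on about 12 fragments of Il1b and 15.1 to 18.1 of Il1rn. Counting error of these ratios was not estimated, so the order within a single library is uncertain. The mean ratio was 1.94 ± 0.535 against 0.705 ± 0.0783 (SD, n = 3), a difference in log2 ratio of -1.40 (exact two-sided permutation test, p = 0.1, the smallest that 3 against 3 allows). For Il18bp over Il18 the ratios were 0.691, 0.550 and 0.553 in control and 1.28, 0.330 and 0.735 in stimulated libraries, so the groups overlapped (difference in log2 ratio 0.18, exact two-sided permutation test, p = 0.7).

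**Figure D2:**
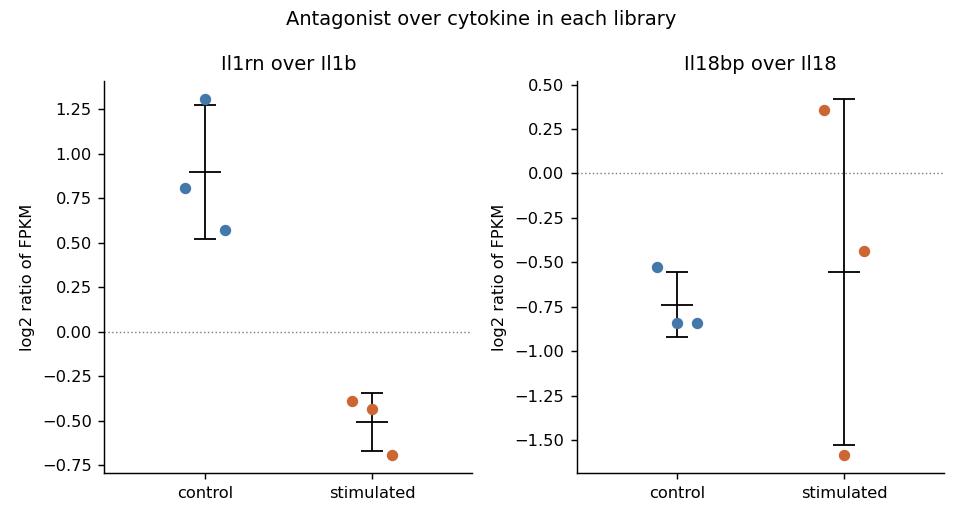
Log2 ratio of antagonist FPKM to cytokine FPKM (vertical axes, scales differ between the panels, 0.1 added to each FPKM) in 3 control libraries (blue) and 3 stimulated libraries (orange). Points are libraries and black bars are the mean ± SD. For Il1rn over Il1b all controls lie above 0 and all stimulated libraries below it, and for Il18bp over Il18 the groups overlap.

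Il18 (NM_008360, chromosome 9, 50565368 to 50581837, plus strand) encodes the other precursor that caspase-1 cuts. It was at 7.86, 6.11 and 10.3 FPKM in the controls and at 6.13, 21.3 and 6.58 FPKM in the stimulated libraries. Stimulated replicate 2 alone lay above the controls, from about 10 fragments, and without it the log2 fold change of 0.27 (95% interval -0.82 to 1.36, limma adjusted p = 0.893) became -0.31. Il18bp (chromosome 7, 102015077 to 102018155, minus strand) encodes a secreted protein that binds IL-18 and blocks it. It had 5.43, 3.36 and 5.67 FPKM in the controls and 7.87, 7.03 and 4.84 FPKM in the stimulated libraries, and the groups overlapped (log2 fold change 0.45, 95% interval -0.28 to 1.18, limma adjusted p = 0.716). These values rest on 12 control and 16 stimulated fragments for Il18 and on 13 and 17 for Il18bp, and the intervals include no change.

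Il1rap (chromosome 16, 26581705 to 26725147, plus strand) encodes the subunit that receptors for IL-1, IL-33 and IL-36 share. Its values were 0.595, 1.21 and 1.87 FPKM in the controls and 2.50, 1.80 and 1.98 FPKM in the stimulated libraries, with 12 and 17 fragments. The highest control value exceeded the lowest stimulated value (log2 fold change 0.84, 95% interval -0.59 to 2.27, limma adjusted p = 0.728). NM_008364 carried all Il1rap FPKM in the controls. NM_134103, which ends earlier in the gene, held 27.5% in stimulated replicate 1 and 56.8% in stimulated replicate 2, from 1.10 and 1.58 fragments, and none elsewhere (exact two-sided permutation test, p = 0.4). In control replicates 2 and 3 the overlapping gene Gm20319 was listed at 8.16 and 3.97 FPKM, and its part in the Il1rap values was not tested.

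Nlrp3 (NM_145827, chromosome 11, 59542686 to 59566956, plus strand) encodes the sensor of the inflammasome. It had 18.1, 15.8 and 12.8 FPKM in the controls and 28.3, 31.1 and 19.3 FPKM in the stimulated libraries. The lowest stimulated value, replicate 3, lay just above the highest control. The log2 fold change came to 0.74 (SE 0.232, 95% interval 0.20 to 1.27, limma adjusted p = 0.357). In sequenced fragments the control libraries held 47.4, 45.4 and 36.3 and the stimulated libraries 77.6, 84.6 and 51.4. Scaled to depth these gave a log2 fold change of 0.77 (95% interval 0.40 to 1.14) and passed (limma adjusted p = 0.0142), in a unit in which 1.38% of all tested genes passed upward and 2 of the 10 genes did, Il1b and Nlrp3. With 1 library left out at a time in that unit Nlrp3 passed in 3 of 6 cases, with adjusted p between 0.00405 and 0.181 from limma. It did not pass where control replicate 3, or replicate 1 or 2 of the stimulated group, was left out. Summed over the libraries there were 129 and 214 fragments, a ratio per depth of 1.74 (exact 95% interval 1.39 to 2.18, counting error only). The SD between stimulated libraries was 17.5 fragments, where counting alone would give 8.44, so this interval leaves out part of the spread. In the controls these values were 5.91 and 6.56.

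Part of the Nlrp3 signal was on transcripts that Cufflinks assembled in single libraries, with 7.37 FPKM in control replicate 1, 4.90 in stimulated replicate 1 and 15.0 in stimulated replicate 2. On the reference transcript alone the means were 13.1 ± 2.54 and 19.6 ± 3.63 FPKM (SD, n = 3), and the log2 fold change was 0.58 (limma adjusted p = 0.743). Casp1 (NM_009807, chromosome 9, 5298517 to 5307281, plus strand), which encodes caspase-1, was the other of the 10 genes with fragments on assembled transcripts. It had 62.9, 118.5 and 77.9 FPKM in the controls and 70.3, 65.4 and 57.5 FPKM in the stimulated libraries. Control replicate 2 stood above all others, and 104.2 of its FPKM were on 2 assembled transcripts of 742 and 914 bases, against 1513 bases for the reference transcript. On the reference transcript alone Casp1 ran from 7.74 FPKM in stimulated replicate 1 to 77.9 FPKM in control replicate 3. Fragment numbers are not divided by transcript length, although their estimate from the coverage uses the length of each transcript. They ranged from 54.1 to 75.2 in control and from 52.2 to 61.2 in stimulated libraries. The log2 fold change was -0.38 in FPKM (95% interval -0.89 to 0.13, limma adjusted p = 0.654) and -0.07 in scaled fragments (95% interval -0.40 to 0.26, limma adjusted p = 0.925), so a doubling of Casp1 lay outside both intervals.

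**Figure D3:**
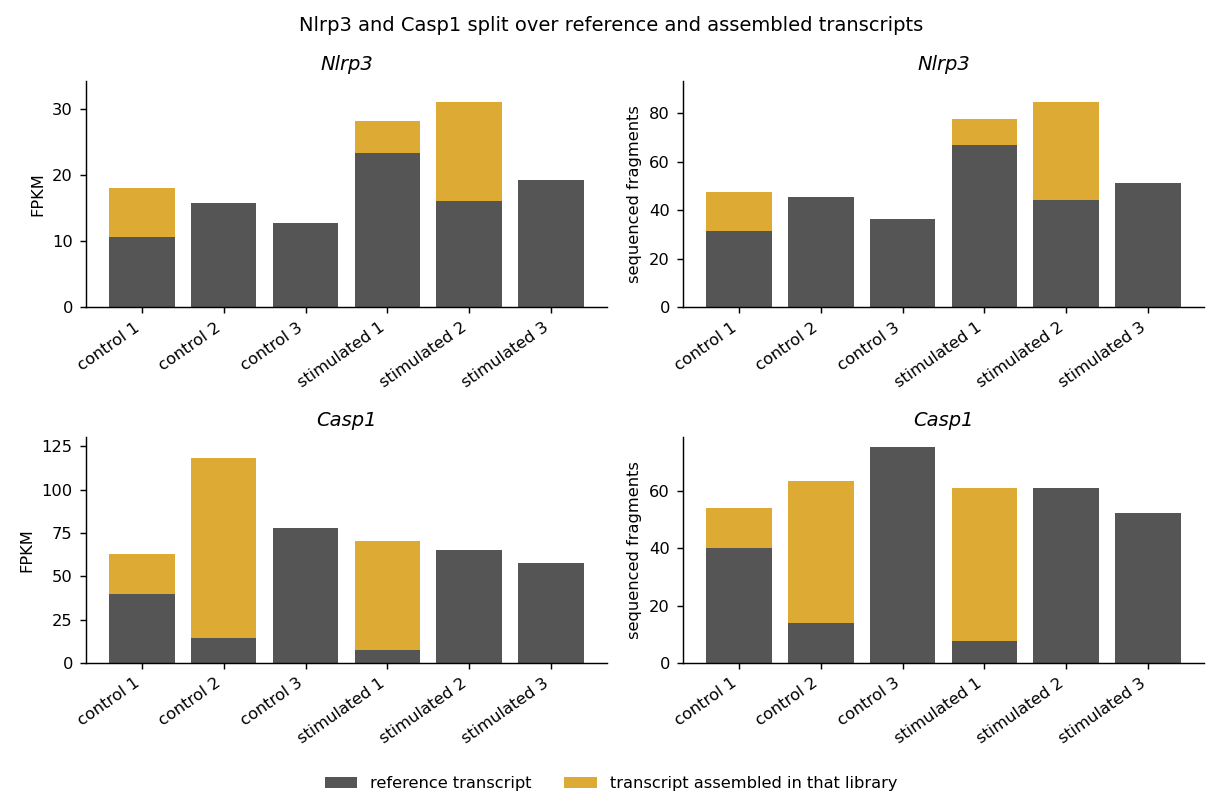
Nlrp3 (top) and Casp1 (bottom) in each of 6 libraries, in FPKM (left) and in estimated sequenced fragments (right), as bars from 0 split into the reference transcript (grey) and transcripts assembled in that library (yellow). The split differs between libraries, and Casp1 in control replicate 2 is far above the other libraries in FPKM (118.5) but not in fragments (63.7).

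Pycard (chromosome 7, 127991373 to 127993867, minus strand), the adaptor gene, had the log2 fold change closest to 0 in FPKM. It had 35.7, 31.9 and 31.7 FPKM in the controls and 30.6, 37.0 and 35.2 FPKM in the stimulated libraries, from 145 and 143 fragments. The groups overlapped, and its value of 0.05 had an interval from -0.28 to 0.38 (limma adjusted p = 0.945). Casp4 (chromosome 9, 5308849 to 5336791, plus strand) encodes mouse caspase-11, which senses lipopolysaccharide in the cytosol and acts upstream of NLRP3, and starts 1567 bases beyond the end of Casp1. It had 15.7, 10.8 and 14.3 FPKM in the controls and 20.7, 20.4 and 19.9 FPKM in the stimulated libraries, with no overlap. Its log2 fold change was 0.59 (95% interval 0.15 to 1.03, limma adjusted p = 0.382), and the ratio of fragments per depth, from 38 and 54 fragments, was 1.49 (exact 95% interval 0.964 to 2.31).

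**Figure D4:**
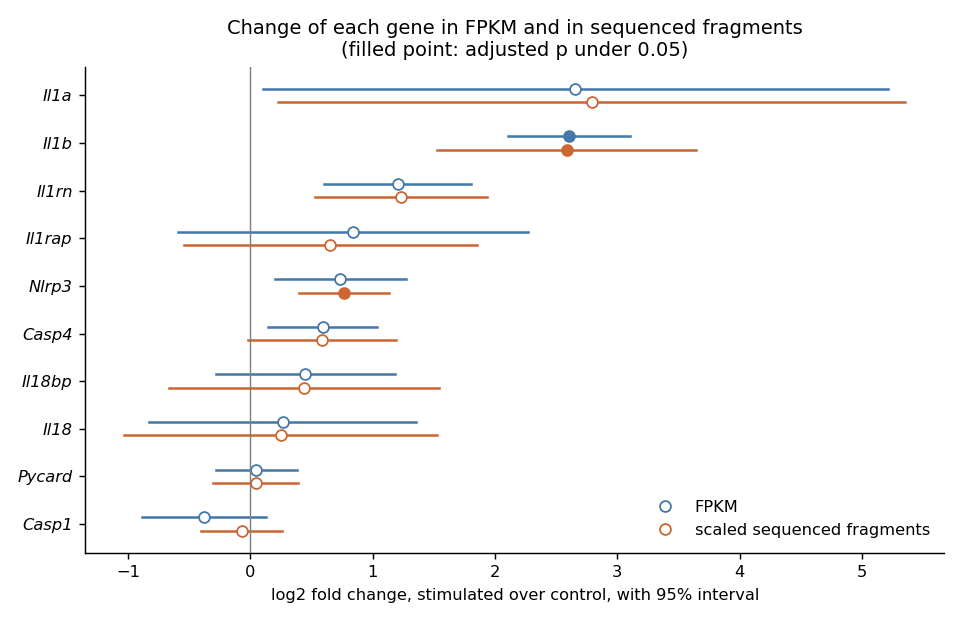
Log2 fold change of each of the 10 genes, stimulated over control (horizontal axis), with 95% intervals, from FPKM (blue) and from sequenced fragments scaled to depth (orange). Filled points have an adjusted p under 0.05, which are Il1b in both units and Nlrp3 in scaled fragments (0.77). Casp1 lies lower in FPKM (-0.38) than in scaled fragments (-0.07).

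Ranked by mean FPKM in the controls, the genes ran Casp1, Pycard, Nlrp3, Casp4, Il18, Il18bp, Il1rn, Il1b, Il1rap and Il1a. The libraries of neighbours in this order overlapped for Nlrp3 and Casp4, for Il18bp and Il1rn, and for Il1rap and Il1a. In stimulated macrophages Il1b moved from rank 8 to rank 5, and its lowest library (14.4 FPKM) lay above the highest of Il1rn (11.1 FPKM). The first 4 places stayed the same. Pycard and Nlrp3 now overlapped, as did Nlrp3 and Casp4, Il1b and Il18, Il18 and Il1rn, Il18bp and Il1a, and Il1a and Il1rap.

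The same cells were examined for the rest of the pathway with 6 lists of genes, also chosen with earlier results of these data known. Of 51 tested genes, 1 passed upward and 0 downward in FPKM from limma, and 5 passed upward and 0 downward in scaled fragments. The FPKM groups separated upward in 12 and downward in 5, where 9.04% of all tested genes were separated upward and 6.89% downward, 0.308% passed upward in FPKM and 1.38% did in scaled fragments. Sigirr and Nod2 averaged under 1 FPKM in the controls and were tested only through their stimulated libraries. Among other ligands Il33, Il1f5, Il1f6, Il1f8 and Il1f10 were listed at 0 in all libraries. Il1f9, which encodes IL-36γ, had 5.22 ± 1.31 FPKM in controls and 5.46 ± 1.30 FPKM in stimulated macrophages (SD, n = 3; log2 fold change 0.07, limma adjusted p = 0.971).

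Of 9 receptors and decoys, 2 were tested, Il1rl2 and Sigirr, and 0 passed. Il1r1, the signalling receptor for IL-1, was close to the limit of detection, at 0.392 ± 0.171 and 0.407 ± 0.473 FPKM (SD, n = 3) from 4 fragments in each group. The decoy receptor Il1r2 and the IL-18 receptor chain Il18r1 were listed at 0 throughout. Il1rl2, the receptor for IL-36, had 2.23, 3.83 and 1.56 FPKM in the controls and 7.70, 7.23 and 5.80 FPKM in the stimulated libraries, with no overlap (log2 fold change 1.49, SE 0.376, limma adjusted p = 0.212). Sigirr, an inhibitory receptor, had 3 and 6 fragments and overlapping groups (log2 fold change 1.57, limma adjusted p = 0.760).

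Of 14 genes that carry the signal from these receptors, 1 passed upward and 0 downward in FPKM, with a median log2 fold change of 0.09. The gene that passed was Irak3, which encodes IRAK-M, an inhibitor of this signalling in macrophages. It had 29.2, 26.6 and 22.1 FPKM in the controls and 52.9, 49.6 and 59.6 FPKM in the stimulated libraries (log2 fold change 1.06, SE 0.157, limma adjusted p = 0.0409). With any single library left out it no longer passed in FPKM, at 0.084 to 0.202, and it passed in all 6 such cases in scaled fragments, at 0.000118 to 0.0014 (limma adjusted p). Irak1, a kinase that relays the signal, had lower values in every stimulated library, 29.9 ± 2.05 against 17.8 ± 7.11 FPKM (SD, n = 3), and did not pass (log2 fold change -0.83, limma adjusted p = 0.448). Irak2 was at 14.1 ± 1.55 and 21.5 ± 1.44 FPKM (SD, n = 3) without overlap (log2 fold change 0.61, limma adjusted p = 0.267).

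Of 11 tested inflammasome sensors beside Nlrp3, 0 passed in FPKM, with a median log2 fold change of 0.28. The largest absolute values were those of Naip5 (-2.04, limma adjusted p = 0.806), Nlrp1b (-1.83, limma adjusted p = 0.820) and Naip6 (-1.40, limma adjusted p = 0.811), each listed at 0 in a single stimulated library. These genes have near-identical copies, so the split of their fragments is uncertain. Mefv, which encodes pyrin, was at 7.31 ± 1.47 and 16.1 ± 3.31 FPKM (SD, n = 3) without overlap, with a log2 fold change of 1.13 in FPKM (limma adjusted p = 0.137) and 1.19 in scaled fragments, where it passed (limma adjusted p = 0.00613, but 0.0978 without stimulated replicate 1). Of 17 genes of inflammasome control and pore formation 0 passed in FPKM, and their median log2 fold change was 0.08. Serpinb1a had a log2 fold change of 1.42 from 5 and 7 fragments (limma adjusted p = 0.775), and Gbp2 one of 0.83 (limma adjusted p = 0.671), both with overlap. Tnfaip3, the gene of the NF-κB inhibitor A20, was at 15.8 ± 2.06 and 29.1 ± 2.00 FPKM (SD, n = 3) without overlap (log2 fold change 0.88, limma adjusted p = 0.113 in FPKM and 0.000888 in scaled fragments). Gsdmd, which encodes the pore protein gasdermin D, had 55.8 ± 13.7 and 49.4 ± 13.0 FPKM (SD, n = 3).

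Of 10 cytokines and enzymes that NF-κB is known to induce beside Il1b, 6 were tested and 0 passed in FPKM, with a median log2 fold change of 0.97. Il6 and Nos2 were listed at 0 in all 6 libraries. Cxcl2, a neutrophil chemokine, had 1.48, 6.12 and 6.18 FPKM in the controls and 27.6, 28.8 and 23.9 FPKM in the stimulated libraries (log2 fold change 2.76, limma adjusted p = 0.102). Tnf was without overlap as well (log2 fold change 1.76, limma adjusted p = 0.0818). With 1 library left out at a time in FPKM, each of them passed in 1 of 6 cases. Cxcl2 passed without control replicate 1 (limma adjusted p = 0.0159) and was otherwise as high as 0.3. Tnf passed without stimulated replicate 3 (limma adjusted p = 0.00887) and was otherwise as high as 0.279. Cxcl2 and Tnf passed in scaled fragments (adjusted p = 0.00147 and 0.000139 from limma). Ccl4 had a log2 fold change of 2.82 with overlapping groups (limma adjusted p = 0.755). Ccl3 (log2 fold change 0.18) and Il10 (0.07) also overlapped. Ptgs2 was lower in every stimulated library, 4.84 ± 0.394 against 3.66 ± 0.527 FPKM (SD, n = 3), and did not pass (log2 fold change -0.40, limma adjusted p = 0.706). Mefv, Tnfaip3, Cxcl2, Tnf and Irak3 were the 5 genes of these lists to pass in scaled fragments.

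**Figure D5:**
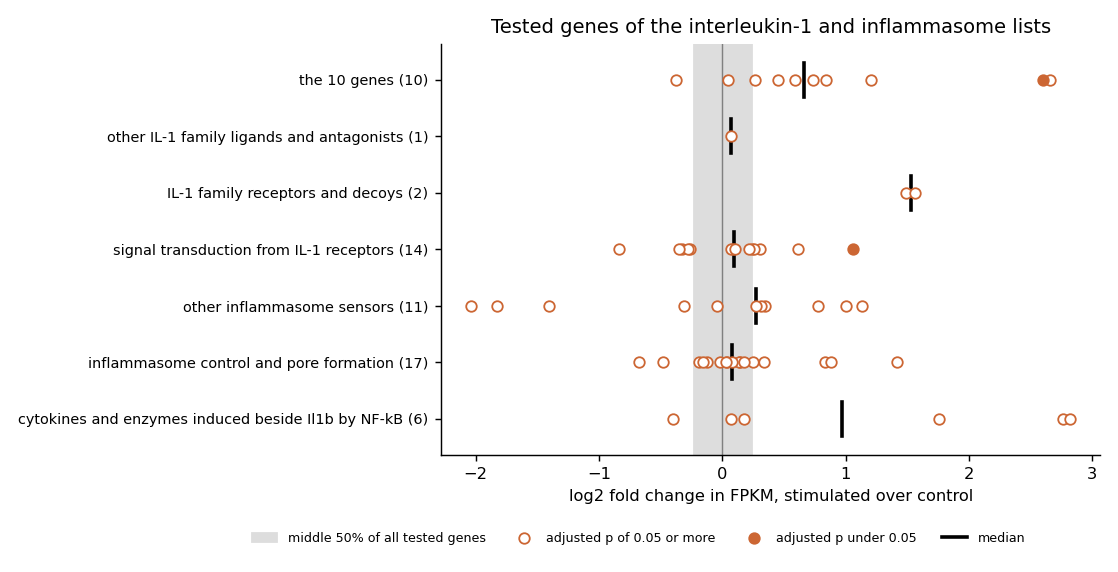
Log2 fold change in FPKM, stimulated over control (horizontal axis), of the 10 genes and of the tested genes of 6 lists (rows, with the number of genes). Circles are genes, filled where the adjusted p is under 0.05 (Il1b and Irak3), black bars are medians, and the grey band holds the middle 50% of all tested genes.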

How the data were processed

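RNA-seq of control and stimulated BMMs was analysed, 3 libraries each. Per the labels and the methods of the study, libraries were prepared with a stranded kit, and the authors mapped paired-end 100 bp reads with TopHat and Bowtie to mm10 and ran Cufflinks library by library. Versions are not given in the sources used here. The deposited values are FPKM per transcript, for reference transcripts and for those assembled in the same library. The coverage, also deposited, is the mean read depth that Cufflinks lists beside each FPKM. The removal of low values and the TMM scaling named in the methods were not evident in the files, and an estimate of their effect could not be made.

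FPKM were summed per gene symbol. An assembled transcript carries no symbol and took that of its Cufflinks locus where the locus holds a single symbol. Genes averaging 1 FPKM or more were tested with limma 3.58.1 in R 4.3.3 (lmFit, eBayes with trend and robust, two-sided) on log2(FPKM + 0.1), with Benjamini-Hochberg adjustment at a threshold of 0.05. Fold changes are on that scale, which understates the change of low genes but can overstate it where a library is at 0 (6.31-fold against a ratio of means of 4.47 for Il1a, and also Ccl4, Naip5, Naip6, Nlrp1b, Sigirr and Serpinb1a). Single values were compared with exact permutation tests over libraries, where 0.1 is the smallest p. Sequenced fragments were estimated as coverage times the usable length over the read length, with a start offset of 210 to 220 bases fitted per library, and 95.1% to 96.1% of values up to 8 of single-transcript genes lay within 0.1 of a whole number. Scaled fragments, an alternative unit, are these numbers divided by those of the library. Intervals on fragments cover counting error only. Gene levels were compared in FPKM, which are per length. The mean chi-square per gene was 1.52 to 1.70 between libraries of a group and 2.09 to 2.55 between groups. Promoter windows are from a RefSeq table (GRCm38.p6), which held a window for all 10 genes.

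The 10 genes and the lists (other ligands, receptors, signal transduction, other sensors, inflammasome control, induced cytokines, and cell markers) were chosen with earlier results of these data known. Of the lists a gene was named where it passed the threshold, was among the 3 largest absolute fold changes of its list, or was singled out after its values were seen (Mefv, Il1r1, Gsdmd, Col1a1 and genes at 0). Alternatives changed the pseudocount, filter, scaling, unit, moderation, block and libraries. The procedure was tested on simulated data. Tables and figures were made in Python 3.11.15 (scipy 1.17.1, pandas 2.3.3, numpy 2.4.6, matplotlib 3.10.9).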

Additional observations from a re-analysis of the deposited data

How the results depend on the processing

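Each of the 10 genes was compared with its value under every alternative. In 217 cases direction and side of the threshold were kept, 6 passed the threshold where FPKM did not, and 5 changed sign, none of them past the threshold. With 1 library left out the log2 fold change of Il18 ran from -0.31 to 0.58 and that of Pycard from -0.0086 to 0.128, both negative without stimulated replicate 2 alone (-0.32 and -0.0127 in scaled fragments). Without control replicate 3 that of Casp1 in scaled fragments was 0.0634. The 6 were Nlrp3 in scaled fragments, with 3 single libraries left out and with a pseudocount of 1, and Il1rn with that pseudocount (log2 fold change 1.14, limma adjusted p = 0.0486). The difference between the groups in the log2 ratio of Il18bp to Il18 ran from -0.27 to 0.70 with 1 library left out and was -0.27 without stimulated replicate 1. The log2 fold change of Il1a, 2.66, ran from 1.47 without control replicate 2 to 3.49 without control replicate 3. Il1a and Il1rap have no value at a minimum of 5 FPKM.

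The number of genes of all tested genes that passed, 38, was 19 with reference transcripts only, 18 without trend and robust, 223 in scaled fragments and 259 in scaled fragments with a pseudocount of 1 (a setting added after the data were seen), of which 1, 1, 2 and 3 were among the 10 genes. With 1 library left out it ran from 8, without stimulated replicate 1, to 30. It was 22 without control replicate 1 and 17 without stimulated replicate 2. In scaled fragments with 1 library left out, also added later, it ran from 141 to 203, namely 169, 162 and 191 without control replicates 1, 2 and 3 and 141, 145 and 203 without stimulated replicates 1, 2 and 3, with 1 or 2 of the 10 genes. The cause was not tested.

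With the replicate number as a block 18 genes passed, among them Il1b, and it changed the call of none of the 10 genes. The labels do not say that a number is shared, and the correlations of deviations at the same number were -0.0926, 0.0673 and 0.0302, so no pairing was used. Depth limits Il1a, Il1b, Il1rap, Il18 and Il18bp most, at 3 to 13 fragments over the 3 controls.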

Other observations

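Il1b and Nlrp3 were each compared with the genes of at least 10 FPKM on average, by Pearson's r of log2(FPKM + 0.1) over the 6 libraries, as a description. The 6 points share the division into groups, so any gene that differs between the groups scores high. For Il1b the 5 highest of 5524 genes were Aldoa (0.998), Irg1 (0.998), Ugt1a6b (0.996), Marco (0.992) and Saa3 (0.992). Of these, Irg1, which encodes the enzyme that makes itaconate in macrophages, had 7.65 ± 0.979 FPKM in controls and 55.7 ± 3.92 FPKM in stimulated macrophages (SD, n = 3; log2 fold change 2.85, limma adjusted p = 0.000521). Ugt1a6b was at 0 FPKM in all controls and at 35.95 ± 14.37 FPKM in stimulated macrophages (SD, n = 3). Irg1 and Ugt1a6b thus entered this ranking only through their stimulated libraries. Aldoa, a glycolytic enzyme, was at 1273 ± 10.0 and 1477 ± 0.888 FPKM (SD, n = 3) and did not pass (log2 fold change 0.21, limma adjusted p = 0.0869). For Nlrp3 the 5 highest were Cybb (0.990), Cav2 (0.988), Rbm18 (0.985), Sec13 (0.985) and Nadk (0.982). None of these 5 passed in FPKM from limma. Cybb, the catalytic subunit of the phagocyte oxidase, was at 459.5 ± 24.3 and 557.9 ± 40.9 FPKM (SD, n = 3; log2 fold change 0.28, limma adjusted p = 0.244).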
